A study of Mus musculus with 12 samples.

Results

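Interferon-stimulated genes are the genes that cells switch on when an interferon reaches them. The 46 genes described here were chosen by name, as a list of mouse genes known to respond to interferon, and all 46 had a row among the 32688 genes of the count table. RNA was sequenced from RAW264.7 cells, a mouse macrophage line, of 2 genotypes. Null cells carried no deletion named in the labels, and the study's text calls them wild type. TFEB/TFE3 DKO cells lack TFEB and TFE3, a pair of related transcription factors known for driving lysosomal and autophagy genes. The study's methods list wild type and DKO cells together as made with CRISPR. Each genotype is 1 line, so the 3 libraries of a group measure the spread between cultures or libraries and not between independently made lines. Cells of both genotypes were either controls, which the labels call untreated and the study's methods describe as given DMSO, or received etoposide (100 µM, 8 h), a drug that traps topoisomerase II on DNA and leaves breaks in it. The design has 4 groups of 3 libraries, and it asks how the response to DNA damage depends on TFEB and TFE3.

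Type I interferons bind the receptor made of IFNAR1 and IFNAR2, whose kinases JAK1 and TYK2 start the signal inside the cell. STAT2 and IRF9 are parts of ISGF3, the complex that binds the interferon-stimulated response element (ISRE) in the promoters of its target genes. Type II interferon acts on promoters through gamma-activated sites (GAS). Macrophages are known to hold a low level of interferon-stimulated transcripts without infection, and cytosolic DNA is one of the signals that can raise it, through cGAS and STING.

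The rule of choice did not use promoter sequence. It did take genes known to respond to interferon, so their share of ISRE and GAS matches is not independent of that choice. RefSeq windows (GRCm38.p6, from 250 bases before to 50 bases after the gene start) were matched by symbol for 35 of the 46 members. The ISRE core GAAANNGAAA, searched on both strands, was present in 21 of the 35 members (60%), against 3.99% of the 27025 genes with a window. The GAS core TTCNNNGAA was present in 9 members (25.7%), against 9.55% of all genes. The E-box CACGTG, the core of the sites that TFEB and TFE3 are known to bind, was in 0 of the 35 members, against 8.09% of all genes. These are counts of letters in a window and not of bound sites, and no match says only that the letters are not in that window. The stretches below are shown because they hold the ISRE letters of members whose levels are described later, or, for Oasl1 and Slfn2, because these are the members that were higher in DKO cells by the widest margin and held no ISRE match. Capitals mark bases of ISRE matches, each stretch reads 5′ to 3′ on the strand of its gene, and all lie upstream of the RefSeq start.
Isg15 (chr4:156200859-156200928, minus strand): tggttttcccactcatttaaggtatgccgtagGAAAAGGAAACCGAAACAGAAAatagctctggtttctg
Ifit1 (chr19:34640769-34640838, plus strand): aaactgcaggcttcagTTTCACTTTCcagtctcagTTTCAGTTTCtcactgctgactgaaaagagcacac
Ifit3 (chr19:34583364-34583433, plus strand): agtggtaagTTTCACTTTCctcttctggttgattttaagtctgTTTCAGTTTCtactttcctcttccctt
Oas1a (chr5:120907526-120907595, minus strand): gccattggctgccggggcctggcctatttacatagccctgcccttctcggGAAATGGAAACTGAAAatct
Irgm1 (chr11:48871421-48871490, minus strand): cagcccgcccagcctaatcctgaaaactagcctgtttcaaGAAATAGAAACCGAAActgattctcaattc
Bst2 (chr8:71537563-71537632, minus strand): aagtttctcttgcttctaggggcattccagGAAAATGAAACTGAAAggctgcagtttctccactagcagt
Rsad2 (chr12:26456533-26456602, minus strand): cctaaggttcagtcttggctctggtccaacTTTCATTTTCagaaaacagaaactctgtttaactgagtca
Oasl1 (chr5:114923140-114923239, plus strand): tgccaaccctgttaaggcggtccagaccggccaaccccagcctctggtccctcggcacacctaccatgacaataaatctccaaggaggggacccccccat
Slfn2 (chr11:83065012-83065111, plus strand): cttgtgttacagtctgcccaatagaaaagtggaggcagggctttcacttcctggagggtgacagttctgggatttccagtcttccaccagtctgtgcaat

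Isg15 held overlapping matches in a single run, Ifit1 and Ifit3 each held separate matches on the opposite strand, and Oas1a, Irgm1 and Bst2 each held a pair of overlapping matches. The 35 members had 40 windows, since some had several starts, and these held 31 distinct ISRE matches, of which 26 lay upstream of the start and 22 within 150 bases of it. Of the 11 GAS matches, 1 overlapped an ISRE match, in Bst2. The windows of 11 members were not in the table: Usp18, Tor3a, Zbp1, Mx2, Mx1, Parp14, Oas2, Ifi204, Parp9, Dhx58 and Rtp4.

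**Figure D1:**
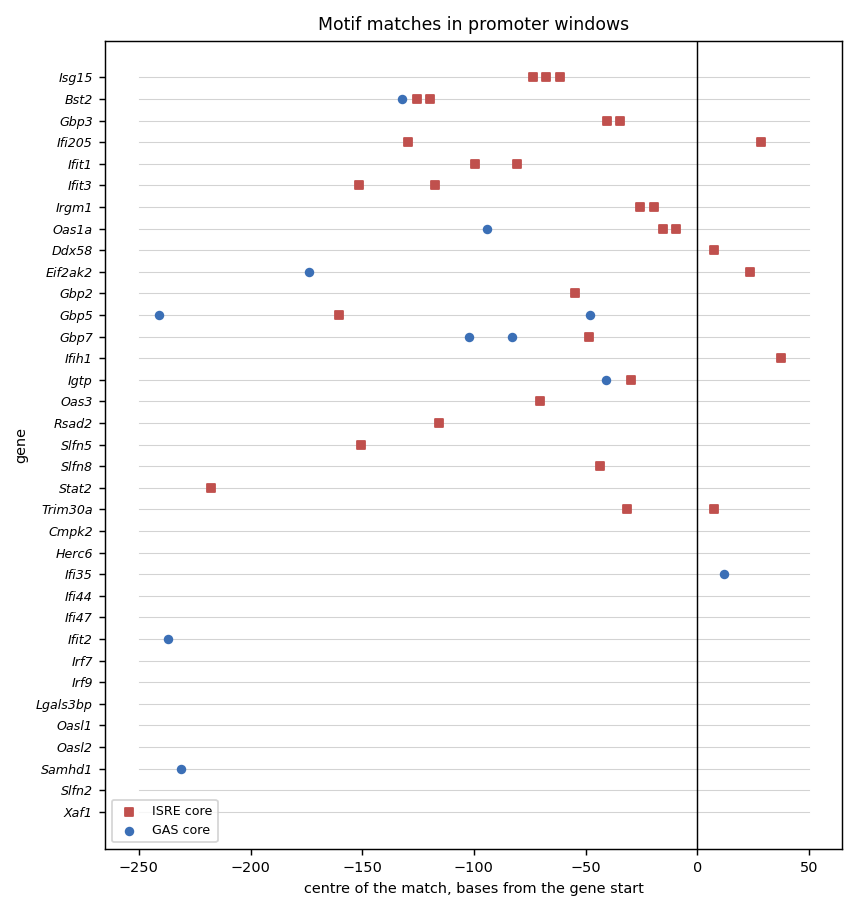
Positions of ISRE core (red squares) and GAS core (blue circles) matches in the promoter windows of 35 members, in bases from the RefSeq gene start (x axis), 1 gene per line. Of the 31 ISRE matches, 22 lie within 150 bases upstream of the start, and the 14 genes at the bottom hold none.

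Totals ran from 29837255 to 61809316 counts per library, and mitochondrial transcripts took 14.1% to 21.7% of them. Of the 46 members, 43 passed the filter on low counts and Ifi205, Gbp2 and Gbp5 did not. The level the filter asks for was reached in all libraries of all 4 groups by 33 of the 43, but in all libraries of only 1 group, Null etoposide, by Isg15, Ifit3 and Mx1. Mx2 reached it in both Null groups and neither DKO group, Gbp3 in both etoposide groups and neither control group, and Zbp1, Ifit1, Oasl2, Rsad2 and Cmpk2 in every group but DKO control, so a count over the tested members is no support by itself. Levels are given as CPM, counts relative to the scaled library size. Tfeb was measured at 17.1, 16.6 and 16.8 CPM in Null control, 3.14, 4.83 and 5.24 in DKO control, 7.62, 7.10 and 7.95 in Null etoposide and 4.27, 4.30 and 4.44 in DKO etoposide. Tfe3 was at 119, 105 and 89.3 CPM in Null control, 31.5, 39.4 and 42.5 in DKO control, 103, 99.1 and 102 in Null etoposide and 38.6, 34.2 and 40.4 in DKO etoposide. Transcripts of both genes were lower in DKO than in Null libraries under both conditions and were not absent. All 8 macrophage markers were present in every group, with a summed level of 4191 to 5130 CPM. For the 3 libraries of etoposide-treated DKO cells the title says both RAW264.7 and MEFs (embryonic fibroblasts), and every other label says RAW264.7. These titles name TFEB/TFE3 without the word DKO. The 8 fibroblast markers summed to 1.08 to 1.29 CPM in those libraries, against 1.97 to 2.19 CPM in the Null cells given etoposide and at most 0.968 CPM in control libraries. Col1a1, Col1a2, Col3a1, Pdgfra, Thy1 and Dcn were at 0 in every Null control library. Markers of B and T cells reached at most 0.874 CPM. The 2 plasmacytoid dendritic cell markers that are no members summed to 61.3 to 129 CPM and were lower after etoposide in both genotypes. One of them, Siglech, was lower in DKO cells under both conditions, as most members were, at 4.05, 3.98 and 2.95 CPM in Null control, 0.169, 0.108 and 0.0305 in DKO control, 0.656, 0.417 and 0.540 in Null etoposide and 0, 0.0350 and 0.0164 in DKO etoposide, and its part in the results was not tested.

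In control cells, the DKO line held less RNA of most interferon-stimulated genes than the Null line. Among the 43 tested members, 34 were lower, 1 was higher (Oasl1) and 8 were not called, by limma-trend at a Benjamini-Hochberg adjusted p under 0.05 over all 18066 genes tested. Over all those genes, 8.4% were called lower and 10.9% higher in the same comparison. The median log2 difference of the members, DKO minus Null, was -1.14, whereas that of all genes was -0.001. Libraries of the 2 genotypes did not overlap for 39 of the 43 members, against 27.6% of all genes. Added over the 43 members, the level was 945 to 1033 CPM in Null control and 534 to 571 CPM in DKO control libraries. Abundant members, such as Lgals3bp and Samhd1, weigh most in such a sum. The summed macrophage markers were also lower in DKO control (4191 to 4344 CPM) than in Null control libraries (4831 to 5130 CPM), but singly 4 of the 8 were lower (Csf1r, Itgam, Lyz2 and Fcgr1), 2 were higher (Ptprc and Spi1) and 2 were not called. Their part in the result was not tested. RNA from whole cultures does not tell fewer expressing cells from less RNA per cell.

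After etoposide most members were again lower in DKO cells. There, 37 members were lower in DKO cells, 3 were higher (Oasl1, Slfn2 and Samhd1) and 3 were not called (Isg15, Oasl2 and Gbp7), with a median log2 difference of -1.01. The background in that comparison was 17.8% of genes lower and 15.9% higher, with a median of -0.012. Groups did not overlap for 42 members, against 55.6% of all genes. The summed level then ran from 1275 to 1352 CPM for Null libraries and from 841 to 865 CPM for DKO libraries. In all, 32 members were lower under both conditions. The share of all genes lower under both was not counted, and it is at most the 8.4% lower in control cells. Isg15 and Oasl2 passed as lower in control cells and not after etoposide, and Gbp3, Herc6, Ifi35, Ifi47 and Tor3a the reverse. The difference between conditions was tested as the interaction. Of the 28 members with a mean of at least 5 CPM, 22 were lower in control cells and 25 after etoposide. Members tested with an ISRE match had a median difference of -1.07 in control cells, with 16 of 18 lower, and those with a window but no match had -0.91, with 8 of 14 lower. After etoposide the medians were -0.81, with 16 of 18 lower, and -1.05, with 10 of 14 lower and 3 higher. The macrophage markers summed to 4583 to 4773 CPM in DKO and 4312 to 4545 CPM in Null libraries after etoposide, where 2 of the 8 were higher in DKO cells (Ptprc and Spi1), 2 were lower (Itgam and Fcgr1, the latter at -2.84) and 4 were not called.

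**Figure D2:**
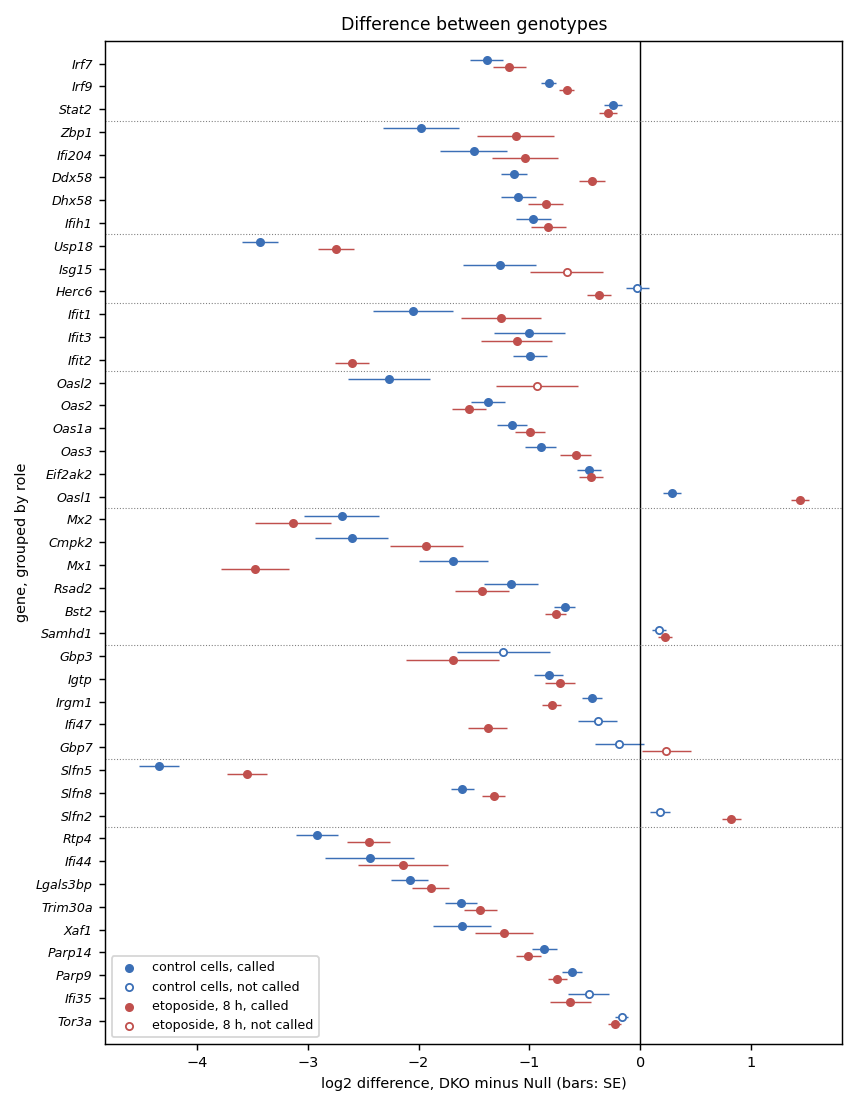
Log2 difference between DKO and Null cells (x axis; DKO minus Null, bars are SE of the limma-trend fit) for the 43 tested members, grouped by role, in control cells (blue) and after etoposide (red); filled points passed the test and open points did not. Slfn5 lies farthest left at -4.34 and -3.54, and Oasl1 farthest right at 1.44 after etoposide.

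All 3 transcription factors among the members were lower in DKO cells under both conditions, by unequal amounts. Of all genes, 8.4% were lower in control cells and 17.8% after etoposide. Irf7, the factor that amplifies type I interferon production, was at 23.6, 18.4 and 15.6 CPM in Null control, 6.18, 8.11 and 7.44 in DKO control, 35.5, 40.5 and 33.6 in Null etoposide and 16.4, 14.9 and 17 in DKO etoposide. Its level in Null control libraries was above every DKO control library, and etoposide libraries lay above control libraries within each genotype. The log2 difference between genotypes was -1.39 ± 0.15 (SE; limma-trend adjusted p = 2.07e-05) in control cells and -1.18 ± 0.15 (adjusted p = 5.25e-05) after etoposide, and etoposide raised it by 0.95 in Null and 1.15 in DKO cells. Irf9, the DNA-binding part of ISGF3, was at 39.7, 41.6 and 39 CPM in Null control, 22.2, 24.2 and 21.3 in DKO control, 57.7, 59.3 and 54 in Null etoposide and 36.3, 36.4 and 35.1 in DKO etoposide, with no overlap between any pair of the 4 groups. Its genotype difference was -0.83 ± 0.071 in control cells (adjusted p = 3.08e-06) and -0.67 ± 0.071 after etoposide (adjusted p = 1.39e-05). Stat2, its partner, was at 18.9, 17.2 and 17.2 CPM in Null control, 14.2, 16.3 and 14.5 in DKO control, 18.4, 17.8 and 17.9 in Null etoposide and 14.9, 14.5 and 14.7 in DKO etoposide. All Null libraries were above all DKO libraries, by far less than for Irf7. The log2 difference of Stat2 was -0.25 ± 0.08 in control cells (limma-trend adjusted p = 0.0482), a call that held without DKO control replicate 2 or DKO etoposide replicate 3 and ended without any of the other 10 libraries, with adjusted p from 0.0125 to 0.227 over the alternatives. After etoposide it was -0.29 ± 0.08 (adjusted p = 0.013), a call that ended without Null etoposide replicate 1 (0.0541), and neither genotype's etoposide response passed (0.021 and -0.026).

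Among the members, sensors of foreign nucleic acid were lower in DKO cells in 5 of 5 tested genes under both conditions. The share of all genes lower was 8.4% in control cells and 17.8% after etoposide. Ddx58, which encodes RIG-I, a sensor of viral RNA, was at 29, 33.8 and 40.3 CPM in Null control, 17.3, 14.2 and 15 in DKO control, 63.6, 63.5 and 58.5 in Null etoposide and 46.5, 48.7 and 41.9 in DKO etoposide. Its groups did not overlap within either comparison of genotypes, and the distance between genotypes was smaller after etoposide. The difference went from -1.14 ± 0.12 in control cells (limma-trend adjusted p = 1.52e-05) to -0.44 ± 0.12 after etoposide (adjusted p = 0.0121, and 0.0548 without DKO etoposide replicate 3). Ifih1 (MDA5) and Dhx58 (LGP2), the other RIG-I-like receptors, differed by -0.96 and -1.10 in control cells and by -0.83 and -0.85 after etoposide. Zbp1, a sensor of Z-form nucleic acid, was scarce, at 0.227, 0.202 and 0.433 CPM in Null control, 0, 0.0538 and 0.0305 in DKO control, 0.824, 1.16 and 1.14 in Null etoposide and 0.636, 0.420 and 0.312 in DKO etoposide. Its DKO control libraries held close to no counts, and all other groups lay above them. Its call after etoposide ended with a prior count of 1 and without replicate 2 or 3 of either etoposide group (adjusted p up to 0.1). Ifi204, of the family of DNA-binding PYHIN proteins, differed by -1.50 and -1.04, and the second call ended without replicate 1 of either etoposide group (up to 0.0687). Ifi205 of the same family was not tested and stayed at or below 0.133 CPM.

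The system built on ISG15, a ubiquitin-like modifier, has 3 members, of which 2 were lower in DKO cells and 0 higher under each condition. The background of lower calls was 8.4% of genes in control cells and 17.8% after etoposide. Usp18 (chr6:121245906-121270917, plus strand), the protease that removes ISG15 and also restrains the interferon receptor, was at 9.40, 11.2 and 13.3 CPM in Null control, 1.13, 1.02 and 0.823 in DKO control, 17.3, 16.5 and 13.9 in Null etoposide and 2.00, 2.57 and 2.40 in DKO etoposide. Every Null library was above every DKO library, and the genotype difference in control cells was -3.43 ± 0.17 on the log2 scale or 10.8-fold lower (limma-trend adjusted p = 1.64e-08). After etoposide it was -2.75 ± 0.17 (adjusted p = 6.89e-08). Isg15 itself was below 1 CPM in every library, at 0.357, 0.262 and 0.165 CPM in Null control, 0.0376, 0.126 and 0.0610 in DKO control, 0.420, 0.473 and 0.502 in Null etoposide and 0.309, 0.350 and 0.181 in DKO etoposide. The fitted difference was -1.27 in control cells and -0.66 after etoposide, a description, since Isg15 passed the filter only through Null etoposide cells, and its call in control cells ended without Null control replicate 1, Null control replicate 2 or DKO control replicate 3 (limma-trend adjusted p of at most 0.06). Herc6, which encodes the ligase that attaches ISG15 in mice, was at 8.82, 9.45 and 9.85 CPM in Null control, 8.73, 9.91 and 8.99 in DKO control, 4.62, 4.70 and 4.63 in Null etoposide and 3.16, 3.69 and 3.93 in DKO etoposide. It overlapped between genotypes in control cells. It was lower in DKO cells after etoposide, a call that ended without any Null etoposide library or DKO etoposide replicate 1 (adjusted p up to 0.0886). Gm45193 overlaps Herc6 on its own strand and could account for up to 57.4% of the counts.

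IFIT genes encode proteins that bind viral RNA. Ifit2 was at 8.75, 12 and 12.5 CPM in Null control, 6.12, 5.38 and 4.97 in DKO control, 4.17, 4.66 and 4.82 in Null etoposide and 0.690, 0.769 and 0.641 in DKO etoposide. The DKO etoposide libraries stood far below all others, and the log2 difference between genotypes was -0.99 ± 0.15 in control cells (limma-trend adjusted p = 0.00043) and -2.60 ± 0.15 after etoposide (adjusted p = 5.6e-08). Ifit1 and Ifit3 reached at most 1.56 and 0.328 CPM in any library. Ifit1 was lower in DKO control cells, with a log2 difference of -2.05, and the fitted difference of Ifit3 was -1.0, a description, since Ifit3 passed the filter only through Null etoposide cells. The Ifit3 call in control cells held in 6 of 22 alternatives. After etoposide the Ifit1 call ended without Null etoposide replicate 1 or DKO etoposide replicate 2 or 3 (adjusted p up to 0.0717), and that of Ifit3 without replicate 2 or 3 of Null etoposide cells or replicate 2 of DKO etoposide cells (up to 0.0638). Of the 75-base words in its transcripts, 41.1% are shared, mostly with Ifit3b, so counting uniquely mapped pairs can undercount it.

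The OAS family, most of whose products make the 2-5A messenger that activates RNase L, held both directions. Oas1a, Oas2, Oas3 and Oasl2 were lower in DKO control cells, with log2 differences of -1.15, -1.37, -0.90 and -2.27. So was Eif2ak2 (PKR, the kinase that halts translation on double-stranded RNA), at -0.46. The Eif2ak2 call ended with only the 2 groups fitted (limma-trend adjusted p = 0.0641). Oas3 was at 86.8, 70.5 and 63 CPM in Null control, 31, 43.4 and 44.2 in DKO control, 171, 178 and 164 in Null etoposide and 111, 107 and 125 in DKO etoposide. Oasl1 (chr5:114923240-114937915, plus strand), known as a repressor of Irf7 translation, went the other way, at 14.9, 15 and 15.8 CPM in Null control, 19.2, 19.6 and 17.2 in DKO control, 20.4, 24 and 21.8 in Null etoposide and 61.1, 60.6 and 58 in DKO etoposide. Its DKO etoposide libraries were all well above the other 9, of which none exceeded 24.0 CPM. Oasl1 was higher in DKO cells by 0.29 ± 0.082 in control cells (limma-trend adjusted p = 0.0245), a call that ended without Null control replicate 1 or 2, DKO control replicate 1 or 2, or DKO etoposide replicate 1 (at most 0.14). After etoposide the difference was 1.44 ± 0.082, or 2.72-fold (adjusted p = 3.93e-08). Of Oas1a's 75-base words 47.6% are shared, mostly with Oas1g.

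Among the other antiviral effectors, the Mx GTPases, a family known for restricting viruses, were close to 0 in DKO cells. Mx1 was at 0.162, 0.0807 and 0.165 CPM in Null control, 0, 0 and 0 in DKO control, 0.824, 0.739 and 0.598 in Null etoposide and 0.0363, 0 and 0 in DKO etoposide. It had 17 counts over the Null control libraries and 0 over the DKO control libraries, so it was at least 6.23-fold lower (against 3 counts over the group), and 119 counts in Null etoposide against 2 in DKO etoposide (a ratio of 62.8, 95% interval 17.0 to 524, counting error only). Both ratios pool the 3 libraries of a group. They are descriptions, since Mx1 passed the filter only through Null etoposide cells. The members' median stayed -1.14 with Mx1 at the bound of 6.23-fold in control cells. Mx2 was at 0.681, 0.545 and 1.26 CPM in Null control, 0.0376, 0.0897 and 0.0915 in DKO control, 1.43, 1.55 and 1.43 in Null etoposide and 0.109, 0.192 and 0.0657 in DKO etoposide, with every Null library above every DKO library, and the fitted differences were -2.69 and -3.13, a description, since Mx2 passed the filter only through the Null groups. Rsad2 (viperin) and its neighbour Cmpk2, a nucleotide kinase, had log2 differences of -1.17 and -2.60 in control cells, and Bst2 (tetherin, which holds budding virus at the cell surface) of -0.68. Samhd1, which breaks down dNTPs, was at 114, 108 and 110.1 CPM in Null control, 119, 123 and 133 in DKO control, 94.2, 93 and 93.4 in Null etoposide and 107, 106 and 115 in DKO etoposide. It was the only effector with DKO libraries above Null libraries under both conditions, by 0.17 (adjusted p = 0.0906) and 0.22 ± 0.065 (adjusted p = 0.0182, a call that ended without any Null etoposide library or DKO etoposide replicate 3, at most 0.0757).

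**Figure D3:**
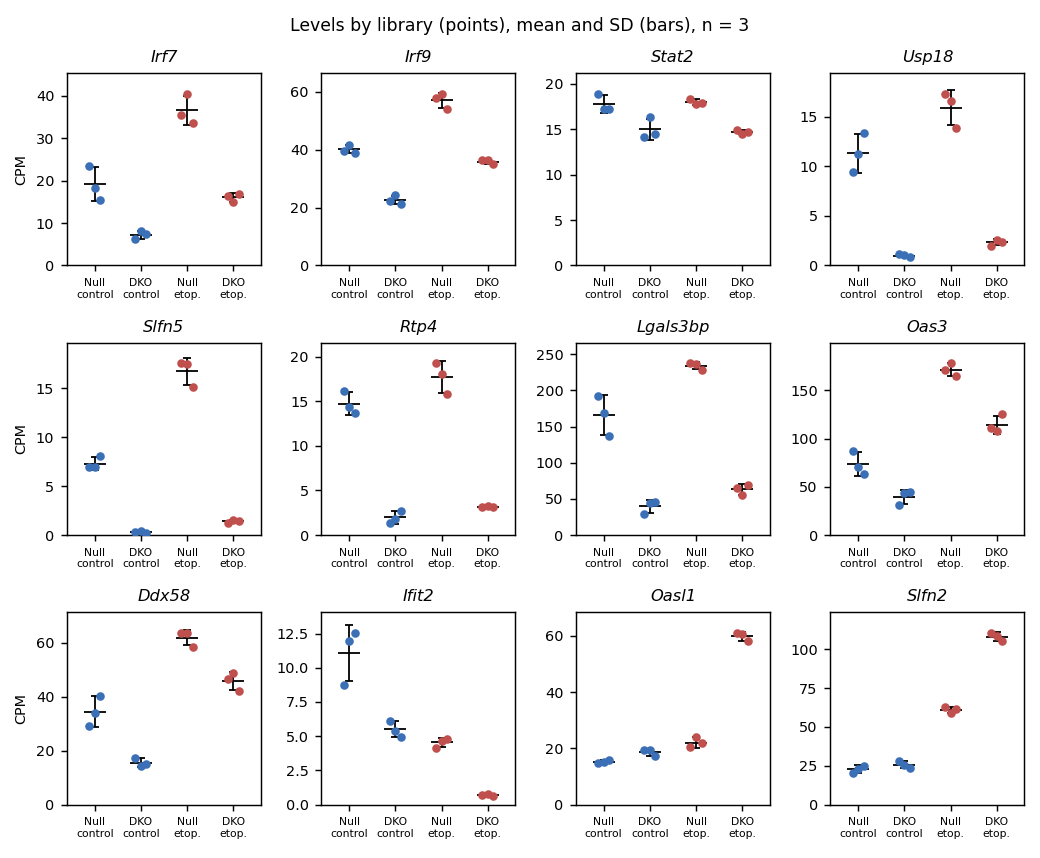
Level of 12 members by library (points, CPM on the y axis from 0), with the mean and SD of each group of 3 libraries (bars), in control cells (blue) and after etoposide (red). Null libraries lie above DKO libraries for the first 10 genes in each condition, and Oasl1 and Slfn2 are highest in DKO etoposide libraries.

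Of 5 tested interferon-inducible GTPases, which act on vacuoles that hold pathogens, 2 were lower in DKO control cells and 4 after etoposide. Over all genes, 8.4% were lower in control cells and 17.8% after etoposide. Igtp and Irgm1 were lower in DKO control cells (-0.83 and -0.43), and Gbp3, Ifi47 and Gbp7 did not pass (-1.23, -0.39 and -0.19). Gbp3 was at 0.162, 0.383 and 0.330 CPM in Null control, 0.150, 0.0179 and 0.122 in DKO control, 1.48, 1.42 and 1.06 in Null etoposide and 0.436, 0.210 and 0.510 in DKO etoposide, above 1 CPM in the 3 Null etoposide libraries only, and after etoposide differed by -1.69 ± 0.42 (limma-trend adjusted p = 0.00798). Ifi47 was at 2.59, 3.19 and 3.94 CPM in Null control, 2.23, 2.51 and 2.56 in DKO control, 3.68, 3.18 and 3.95 in Null etoposide and 1.54, 1.15 and 1.36 in DKO etoposide, with DKO etoposide libraries below all others. Gbp7 was at 0.713, 0.585 and 0.598 CPM in Null control, 0.695, 0.628 and 0.366 in DKO control, 1.53, 1.87 and 1.66 in Null etoposide and 1.89, 2.26 and 1.86 in DKO etoposide, the only member called in neither comparison of genotypes, and 23.5% of its counts could come from an overlapping gene. Gbp2 and Gbp5 were not tested and reached at most 0.247 and 0.0772 CPM.

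Schlafens, of which Slfn2 is known for a role in immune cell quiescence, differed widely among themselves. Slfn5 (chr11:82951349-82964840, plus strand, GENCODE M21 on GRCm38) was at 6.90, 6.94 and 8.06 CPM in Null control, 0.338, 0.377 and 0.213 in DKO control, 17.6, 17.5 and 15.1 in Null etoposide and 1.18, 1.54 and 1.43 in DKO etoposide. DKO control libraries reached at most 0.377 CPM and every Null library at least 6.90 CPM. The log2 difference was -4.34 ± 0.18, or 20.3-fold lower (limma-trend adjusted p = 4.77e-09), in control cells and -3.54 ± 0.18, or 11.7-fold lower (adjusted p = 1.55e-08), after etoposide. Slfn8 differed by -1.60 and -1.32. Slfn2 was at 20.1, 22.8 and 25.1 CPM in Null control, 27.8, 25.5 and 23.5 in DKO control, 62.8, 58.9 and 61.3 in Null etoposide and 110.5, 109 and 105 in DKO etoposide. Genotypes overlapped in control cells (0.18, adjusted p = 0.211), and after etoposide every DKO library was above every Null library, by 0.82 ± 0.089 (adjusted p = 1.5e-05).

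Of the remaining members, all 9 were lower in DKO cells after etoposide (17.8% of all genes) and 7 in control cells (8.4%). Rtp4, a chaperone of receptors, was at 16.1, 14.4 and 13.7 CPM in Null control, 1.35, 1.85 and 2.71 in DKO control, 19.3, 18.1 and 15.8 in Null etoposide and 3.12, 3.27 and 3.17 in DKO etoposide, without overlap between genotypes, and differed by -2.92 ± 0.19 (limma-trend adjusted p = 3.01e-07) and -2.45 ± 0.19 (adjusted p = 8.6e-07). Lgals3bp, a secreted glycoprotein and the member with the highest level per kilobase in Null control cells, was at 166 ± 27.7 CPM (SD, n = 3) there and at 39.7 ± 9.39 CPM in DKO control cells. Ifi44 varied widely among control libraries, at 94.2, 46.7 and 44.4 CPM in Null control and 5.29, 12.3 and 18.4 CPM in DKO control. Null control replicate 1 stood above the other 2, and the log2 difference was -2.44 ± 0.40 (adjusted p = 0.000741). Trim30a, Xaf1, Parp14 and Parp9 differed by -1.62, -1.61, -0.87 and -0.61 in control cells. Tor3a, at 54.6, 53.1 and 53.6 CPM in Null control, 48.5, 47.1 and 48.1 in DKO control, 42.9, 42.7 and 40.2 in Null etoposide and 36, 35.3 and 35.8 in DKO etoposide, and Ifi35 did not pass there (-0.17 and -0.46). The Ifi35 call after etoposide ended without Null etoposide replicate 2 or DKO etoposide replicate 1 or 3 (adjusted p up to 0.0776), and 19.6% of Ifi35 counts could come from an antisense gene.

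Etoposide raised more members than it lowered in both genotypes. In Null cells 22 members were higher after etoposide, 4 were lower and 17 were not called, against 20.9% and 18.7% of all genes, with a median log2 difference of 0.52 for the members and 0.026 for all genes. In DKO cells 26 were higher, 6 were lower and 11 were not called, against 20.2% and 19.1%, with medians of 0.70 and 0.029. The 2 responses were called up together for 20 members and down together for Herc6, Ifit2, Samhd1 and Tor3a. The shares of all genes called together were not counted, and they are at most 20.2% up and 18.7% down. The fall of Samhd1 in DKO cells held in 9 of 22 alternatives and ended without 8 of the 12 libraries (limma-trend adjusted p up to 0.153). The rise of Lgals3bp in Null cells held in 15 and ended without replicate 2 or 3 of Null control cells, any Null etoposide library or replicate 1 of DKO etoposide cells, and with the replicate block (up to 0.112). Mx1 and Parp14 passed as higher in Null cells alone, Ifih1, Ifit1, Isg15, Oas1a, Oasl2 and Rtp4 as higher and Ifi47 and Parp9 as lower in DKO cells alone, with the difference between genotypes tested as the interaction. Of these, the Ifih1 call held in 9 of 22 alternatives and ended without 8 of the 12 libraries (adjusted p up to 0.186), that of Oas1a ended without DKO control replicate 3 or DKO etoposide replicate 2 or with only the 2 groups fitted (up to 0.0737), that of Rtp4 with only the 2 groups fitted (0.0592), and that of Parp9 without DKO etoposide replicate 1 (0.0585). Isg15 gave no value in the fit of only the 2 groups. A further 9 members were called in neither, among them Stat2, Ifi44, Trim30a and Slfn8. The groups with and without etoposide did not overlap for 35 members in Null cells and 32 in DKO cells, against 53% and 46.4% of all genes.

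Zbp1 and Slfn2 were among the 4 largest rises after etoposide in both genotypes. In Null cells these were Gbp3 (2.02 ± 0.42), Mx1 (2.02 ± 0.31), Zbp1 (1.71 ± 0.35) and Slfn2 (1.43 ± 0.089), all log2 differences with their SE. Gbp3 and Mx1 passed the filter only through groups given etoposide, so their rises are descriptions. In DKO cells they were Zbp1 (2.56 ± 0.35, but 3.90 with edgeR, 4.02 with DESeq2, 3.88 with voom and 3.45 with a prior count of 1), Slfn2 (2.08 ± 0.089), Slfn5 (1.99 ± 0.18) and Gbp7 (1.76 ± 0.22). Ifit2 fell most in both (-1.26 in Null and -2.87 in DKO cells), followed by Herc6 (-1.0 and -1.35). Tor3a (-0.36 and -0.42) and Samhd1 (-0.24 and -0.19) fell by less. Ifi47 was lower after etoposide in DKO cells (-0.83 ± 0.17, limma-trend adjusted p = 0.00218) and did not pass in Null cells (0.17). Usp18 rose by 0.50 in Null cells (adjusted p = 0.0305, a call that ended without Null control replicate 1 or 2 or Null etoposide replicate 1 or 2, with the replicate block and with no filter, at most 0.121) and by 1.19 in DKO cells.

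**Figure D4:**
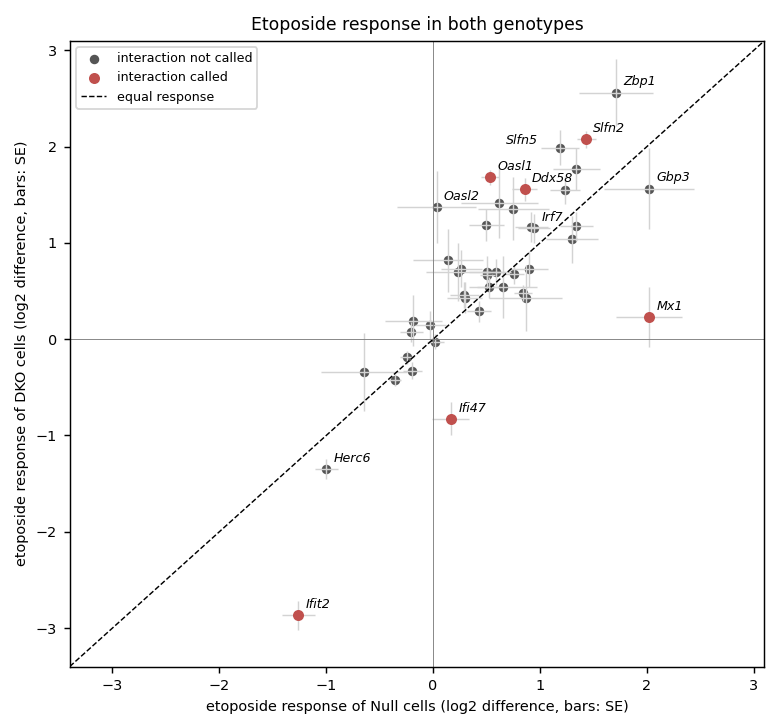
Etoposide response (log2 difference, etoposide minus control, bars are SE) of the 43 tested members in Null cells (x axis) and DKO cells (y axis), with the line of equal response. Most lie along the line above 0 in both, and the 6 members called in the interaction (red) include Ifit2 at the lower left and Oasl1, Ddx58 and Slfn2 above the line.

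Tested directly, the response differed between genotypes for 6 members, with 3 higher and 3 lower in DKO than in Null cells, against 3.07% and 6.39% of all genes. The 3 lower members are 6.98% of the 43, near the share of all genes, and 1 of them, Mx1, passed the filter only through Null etoposide cells. Oasl1 (1.15 ± 0.12, limma-trend adjusted p = 3.23e-05), Slfn2 (0.65 ± 0.13, 0.00584) and Ddx58 (0.70 ± 0.17, 0.0183) rose more in DKO cells. Ifit2 fell more in DKO cells (-1.61 ± 0.22, 0.000389), and Ifi47, which passed as lower in DKO cells, also differed (-0.99 ± 0.24, 0.0222). The Ddx58 call ended without Null etoposide replicate 3 (0.0618) and with the replicate block, and that of Ifi47 without replicate 2 of either group of control cells, without replicate 1 or 3 of etoposide-treated Null cells, and without replicate 2 or 3 of etoposide-treated DKO cells (at most 0.0716). Mx1 rose in Null cells and not in DKO cells (-1.79 ± 0.44, 0.0219), but with 0 or 2 counts in the DKO groups the call did not hold with a prior count of 1 (adjusted p = 0.161), with voom (adjusted p = 0.226), with edgeR (0.09, adjusted p = 0.778) or with DESeq2 (-0.89, adjusted p = 0.866). It also ended without replicate 2 of Null control cells, without either replicate 1 or replicate 2 of etoposide-treated Null cells, and without either replicate 2 or replicate 3 of etoposide-treated DKO cells (adjusted p of at most 0.0671). For the other 37 members the difference in response did not pass, which does not show that the responses were equal. The median of the interaction over the members was 0.16, and over all genes -0.011.

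**Figure D5:**
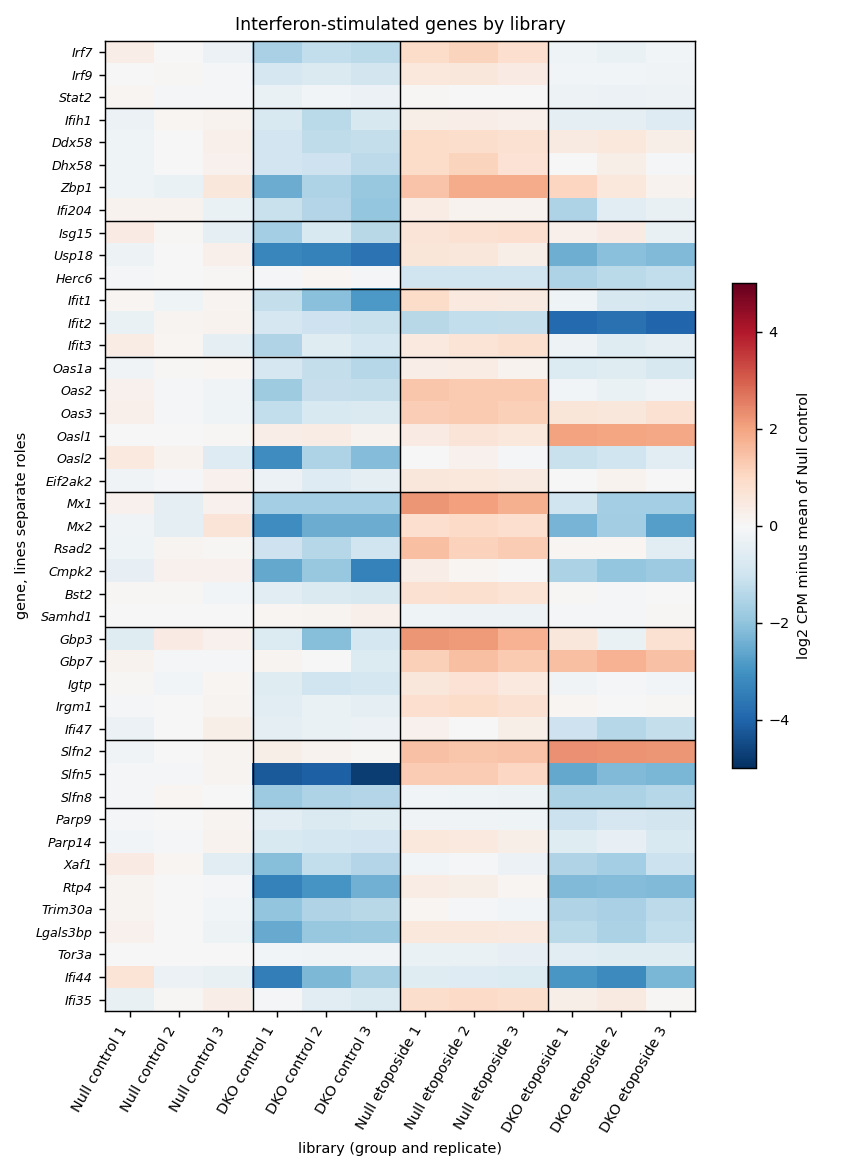
Log2 CPM of the 43 tested members in the 12 libraries (columns), minus the mean of the Null control libraries, with horizontal lines between roles (red higher, blue lower, colour scale from -5 to 5). The DKO control columns are blue for most genes, and Oasl1 and Slfn2 are darkest red in the DKO etoposide columns.

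Genes of the same pathway that are no members were called in both directions. Of 44 listed, 31 were tested, and in control cells 8 were higher and 7 lower in DKO cells (10.9% and 8.4% of all genes), and after etoposide 14 were higher and 8 lower (15.9% and 17.8%). Etoposide raised 9 and lowered 13 in Null cells (20.9% and 18.7% of all genes), and raised 14 and lowered 7 in DKO cells (20.2% and 19.1%). Interferon ligands were near 0: 5 of the 13 listed had a row and none passed the filter, and Ifnb1, the gene of interferon beta, had 5 counts in all, with 0 in the control libraries. The other 8 ligands were not analysed here. The type I receptor subunit Ifnar1 was higher in DKO cells (0.28 in control cells and 0.54 after etoposide), and Ifnar2 did not pass (-0.045 and 0.29). Of 11 tested genes that sense nucleic acid or pass on that signal, 3 were higher and 3 lower in DKO control cells. After etoposide 4 of them were higher and 3 lower. Among the lower ones, Sting1, the adaptor of cytosolic DNA sensing, differed by -0.60 and -0.65. Cgas, which senses that DNA, was at 58.7, 59.9 and 55.3 CPM in Null etoposide and 26.6, 25.9 and 26.9 CPM in DKO etoposide, lower in DKO cells (log2 difference -1.13 ± 0.079, limma-trend adjusted p = 2.91e-07). Socs3, an inhibitor of cytokine signalling, was at 51.9, 53.2 and 53.3 CPM in Null etoposide and 173, 181 and 147 CPM in DKO etoposide, higher by 1.65 ± 0.10 in DKO cells (adjusted p = 7.58e-08), whereas in control cells Socs3 was lower (-0.35 ± 0.10, adjusted p = 0.026). Socs1, an inhibitor of the same family, went the other way, at 2.05, 2.44 and 1.99 CPM in Null etoposide and 0.436, 0.629 and 0.247 CPM in DKO etoposide, with a log2 difference of -2.23 ± 0.42 (adjusted p = 0.00122).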

How the data were processed

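Per the study's methods, the authors depleted ribosomal RNA, made stranded total RNA libraries, sequenced read pairs, aligned them with HISAT2 and kept uniquely mapped pairs. The methods name HTSeq with a GENCODE annotation as the counter, whereas the submitters' processing notes name featureCounts and the build mm10. The strand setting and the annotation release are not given in the sources used here. The authors deposited raw counts, not normalized, with a column for each of the 12 libraries. The labels name a pair of RNA kits without saying which library had which, so a kit effect was not tested.

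Groups were taken from the sample titles. Symbols and coordinates came from GENCODE M21 (GRCm38) by gene identifier, and 99.4% of 32688 identifiers were named. The filter on low counts was filterByExpr (edgeR 4.0.16, 4 groups), keeping 18066 genes with 99.964% of the counts, scaled by TMM (factors 0.939 to 1.03) and converted to log2 CPM with a prior count of 3. They were tested with limma 3.58.1 (limma-trend, robust empirical Bayes, R 4.3.3) in 1 model of 4 group means over all 12 libraries, two-sided, with Benjamini-Hochberg adjustment over all genes and calls at 0.05. Alternatives included edgeR's quasi-likelihood test, DESeq2 1.42.0, other scalings, filters and prior counts, voom weights, the replicate number as a block, fits of only the groups compared and leaving out each library. On simulated counts for etoposide against control in Null cells (18066 genes, 200 changed), limma-trend recovered 191 with 7 false calls among 198, edgeR 192 with 6 among 198, and DESeq2 195 with 41 among 236, so calls that DESeq2 alone adds are less certain. No replicate pair was a repeat of 1 library, since replicates differed by 3.61 to 69.2 times what counting gives (median squared difference). Intervals of count ratios are exact at 95% and cover counting error only.

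The members and lists were chosen with earlier results of these data known. Values in every library are given for Irf7, Irf9, Stat2, Usp18 and Isg15, for the 4 members with the largest called difference in each direction of each comparison of groups, and for the members called in the interaction. Tfeb and Tfe3 were added as a check of the knockout, and values of Oas3, Lgals3bp, Ifi44, Siglech, Cgas, Socs1 and Socs3 were chosen after they were seen. Shares of counts that an overlapping gene could supply assume that its read density extends over the shared exons. Protein sequences were not used here, so near copies were compared by the 75-base words their transcripts share.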

Additional observations from a re-analysis of the deposited data

Results flagged for a closer look

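The etoposide response differed between DKO and Null cells, by the interaction term of limma-trend with Benjamini-Hochberg adjustment over all genes, for 6 members. On the log2 scale, with Null subtracted from DKO, the difference was 1.15 for Oasl1 (adjusted p = 3.23e-05), 0.70 for Ddx58 (0.0183), 0.65 for Slfn2 (0.00584), -0.99 for Ifi47 (0.0222) and -1.61 for Ifit2 (0.000389). For Mx1 the fitted difference was -1.79 (0.0219), a description, since Mx1 passed the filter only through Null etoposide cells. It did not pass with edgeR (0.09, adjusted p = 0.778), DESeq2 (-0.89, adjusted p = 0.866), voom (limma adjusted p = 0.226) or a prior count of 1 (limma-trend adjusted p = 0.161).

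The same test passed for 8 of the 31 other pathway genes tested, with 6 higher and 2 lower, against 3.07% and 6.39% of all genes, so the share of lower calls (6.45%) was near that of all genes. The difference was 2.01 for Socs3 (limma-trend adjusted p = 1.22e-06), 0.78 for Tlr7 (0.0253), 0.67 for the phosphatase gene Ptpn6 (0.00269), 0.56 for Mavs (0.00223), 0.32 for Ifngr2 (0.0285), -0.65 for Irf8 (0.00158) and -0.89 for Cgas (0.00022). For Ifnlr1, the interferon lambda receptor gene and the last of the 8, the fitted difference was 1.99 (0.0399), a description, since every DKO library was below the filter level of 0.19 CPM. Ifnlr1 was at 11, 7.04 and 6.92 CPM in Null control, 0.131, 0.0718 and 0 in DKO control, 2.89, 2.44 and 2.74 in Null etoposide and 0.0908, 0.157 and 0.0493 in DKO etoposide. DKO libraries held 0 to 9 counts of it, and the Ifnlr1 call did not hold with edgeR (1.97, adjusted p = 0.137), with a prior count of 1 (2.36, limma-trend adjusted p = 0.124) or with voom (2.20, adjusted p = 0.185), and held with DESeq2 (2.0, adjusted p = 0.0217), alternatives chosen after seeing the data. Of the targeted genes, Tfeb differed by 1.16 (0.00499), having fallen after etoposide in Null cells.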

How the results depend on the processing

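Members kept their call under every alternative in 24 of 26 cases for etoposide in Null cells, 26 of 32 for etoposide in DKO cells, 28 of 35 for genotype in control cells, 31 of 40 for genotype after etoposide and 3 of 6 for the interaction (Oasl1, Ifit2 and Slfn2). With DESeq2, 5 members were called higher in the interaction, where Slfn5 and Usp18 were added. Slfn5 was also added with edgeR and without DKO control replicate 1 or 2. Usp18 was also added without replicate 1 of Null control or of DKO control cells. The count of members higher in DKO control cells, which is Oasl1 alone, was 0 with library size alone, with no filter and with only the 2 groups fitted. The count of members lower there was 28 with only the 2 groups fitted, in place of 34. The interaction of Mx1 was 0.09 with edgeR in place of -1.79. Leaving out each library in turn gave 20 to 23 members higher and 4 to 5 lower for etoposide in Null cells, 24 to 28 and 4 to 6 in DKO cells, 0 to 1 and 31 to 34 for genotype in control cells, 2 to 3 and 33 to 38 after etoposide, and 2 to 5 and 1 to 3 for the interaction. The interaction count was lowest for lower calls without Null control replicate 2, Null etoposide replicate 1 or DKO etoposide replicate 2 or 3 (1 each), and highest for higher calls without DKO control replicate 1 (5). The Stat2 and Ifit3 calls in control cells held in 7 and 6 of 22 alternatives. Fitted differences of scarce members moved with the model: Mx1 after etoposide from -3.48 to -5.96 and Zbp1 with etoposide in DKO cells from 2.56 to 4.02, both with DESeq2.

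Replicate numbers are shared between groups, but deviations of same-numbered libraries correlated at -0.542 to 0.394, with 1 of 18 pairs over 0.1, so the numbers were not taken as pairs. With the replicate block, 32 members were lower and 1 higher in DKO control cells, 37 lower and 3 higher after etoposide, 20 higher and 4 lower for etoposide in Null cells, 25 and 5 in DKO cells, and 2 higher and 3 lower in the interaction. Depth limits the 6 members under 1 CPM in every library.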
